A study of Mus musculus with 32 samples.

Results

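The genes described here are 57 homeobox and Pax genes outside the Hox clusters, out of 21887 annotated protein-coding genes. They were chosen by gene name, with earlier results of these data known, and sorted into 9 groups by family or by the tissue they pattern. A group name does not describe every gene in it, such as Pitx3 (lens and midbrain dopamine neurons) in the arch and limb group. Each gene was followed through its RefSeq GRCm38.p6 span plus 5 kb on each side, called its window below. The 57 windows form 52 separate loci, because genes within 50 kb of each other, such as Dlx1 and Dlx2, were counted as 1 locus. The data are CUT&Tag profiles of mouse oocytes taken from the ovary, an assay in which an antibody brings a transposase to chromatin that carries a mark. The 32 samples form 16 groups of 2, and the authors deposited 1 peak list for each group: 10 for H3K27me3 and 6 for H2AK119ub.

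Wild-type (WT) oocytes were profiled for both marks at the embryonic stage E18.5, on postnatal day 1 (P1), as non-growing oocytes on day 6 (P6) and as growing oocytes on day 7 (P7). PRC1ctrl oocytes carry the genotype Ring1-/-; Rnf2F/+; Ddx4-Cre, and PRC1cKO oocytes are given as Ring1-/-; Ring1F/-; Ddx4-Cre. Both were profiled for H3K27me3 at P6 and P7. The floxed gene in the second genotype is written differently from that in its control, so the groups are called by their names here, and both lack Ring1. PRC2ctrl (EedF/+; Ddx4-Cre) and PRC2cKO (EedF/-; Ddx4-Cre) oocytes were profiled for both marks at P6. Ddx4-Cre is a recombinase driven in germ cells, so a deletion that it makes is limited to them. Peak lists hold no measure of how completely a floxed gene was deleted.

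Homeobox and Pax proteins bind DNA through a homeodomain, a paired domain or both, and they set the identity of tissues such as eye, limb, kidney and spinal cord in the embryo. Polycomb complexes keep such genes silent in cells where they are not used. Polycomb repressive complex 1 (PRC1) adds a ubiquitin to histone H2A (H2AK119ub) through RING1 or RNF2, and Polycomb repressive complex 2 (PRC2), of which EED is a subunit, methylates histone H3 (H3K27me3). Both complexes are known to gather at CpG islands, stretches of DNA rich in the dinucleotide CG that lie at many promoters.

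Promoters of 6 genes that differ in their coverage are printed here from RefSeq (GRCm38.p6), each as the 300 bases from 250 before to 50 after an annotated start, read 5′ to 3′ on the strand of the gene. Capitals mark every CG dinucleotide. Emx1 (chr6:85187681-85187980, plus strand, 37 CG) and Six3 (chr17:85620584-85620883, plus strand, 14 CG) had windows that H3K27me3 peaks covered whole in all 10 lists. Meox2 (chr12:37108290-37108589, plus strand, 12 CG) had the smallest covered share for both marks. Lhx1 (chr11:84525485-84525784, minus strand, 31 CG), Msx2 (chr13:53472731-53473030, minus strand, 22 CG) and Isl2 (chr9:55540899-55541198, plus strand, 23 CG) had promoters that lay outside H3K27me3 peaks in part of the lists.
Emx1: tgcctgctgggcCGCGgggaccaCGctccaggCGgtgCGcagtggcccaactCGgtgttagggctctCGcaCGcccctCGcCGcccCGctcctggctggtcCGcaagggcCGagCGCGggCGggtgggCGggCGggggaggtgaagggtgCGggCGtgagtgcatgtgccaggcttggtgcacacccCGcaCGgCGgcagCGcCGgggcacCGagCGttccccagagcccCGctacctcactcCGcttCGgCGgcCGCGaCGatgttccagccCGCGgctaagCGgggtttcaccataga
Six3: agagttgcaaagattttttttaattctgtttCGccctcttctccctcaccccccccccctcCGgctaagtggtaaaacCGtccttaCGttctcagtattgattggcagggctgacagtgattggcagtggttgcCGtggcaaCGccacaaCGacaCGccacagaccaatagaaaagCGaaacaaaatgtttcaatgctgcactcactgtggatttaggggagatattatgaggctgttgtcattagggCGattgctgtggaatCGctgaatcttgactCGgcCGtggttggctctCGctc
Meox2: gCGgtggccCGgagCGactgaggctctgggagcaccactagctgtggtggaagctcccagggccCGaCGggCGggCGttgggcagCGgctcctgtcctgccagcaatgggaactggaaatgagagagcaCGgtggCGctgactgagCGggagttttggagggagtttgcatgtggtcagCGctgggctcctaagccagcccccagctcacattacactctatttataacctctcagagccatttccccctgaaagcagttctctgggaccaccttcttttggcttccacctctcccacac
Lhx1: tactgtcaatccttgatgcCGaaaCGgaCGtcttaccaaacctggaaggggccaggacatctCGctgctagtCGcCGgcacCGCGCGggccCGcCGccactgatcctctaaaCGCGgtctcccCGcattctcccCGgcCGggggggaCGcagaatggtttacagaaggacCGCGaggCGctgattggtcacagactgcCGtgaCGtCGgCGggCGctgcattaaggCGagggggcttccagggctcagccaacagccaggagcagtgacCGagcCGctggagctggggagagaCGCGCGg
Msx2: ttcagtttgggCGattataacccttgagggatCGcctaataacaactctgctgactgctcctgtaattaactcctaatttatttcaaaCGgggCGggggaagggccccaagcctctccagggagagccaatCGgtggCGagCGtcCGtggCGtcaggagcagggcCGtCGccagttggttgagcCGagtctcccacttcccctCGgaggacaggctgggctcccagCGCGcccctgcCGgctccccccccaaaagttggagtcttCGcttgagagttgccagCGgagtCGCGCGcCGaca
Isl2: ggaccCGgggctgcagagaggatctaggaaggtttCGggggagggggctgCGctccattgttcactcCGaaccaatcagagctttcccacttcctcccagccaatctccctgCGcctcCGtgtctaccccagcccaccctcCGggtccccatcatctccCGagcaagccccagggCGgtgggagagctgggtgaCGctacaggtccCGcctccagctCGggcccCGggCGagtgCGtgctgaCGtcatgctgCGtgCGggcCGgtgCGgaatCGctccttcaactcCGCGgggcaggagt

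Of the 57 genes, 44 had a promoter in the RefSeq table, 54 promoters in all. A median of 6.17 CG dinucleotides per 100 bases was found in these promoters, against 4.33 over all 21263 protein-coding promoters, and the members ranged from 6 to 50 per promoter. Their median GC content was 60.8%, against 56.3%. The letters CGCG, searched on both strands at once because the motif reads the same on each, were present in 37 member promoters (68.5%) and in 49.2% of all promoters of this length. This is a description of the letters only. A promoter was counted as inside a peak when all 300 bases lay in one. All 54 member promoters were inside H3K27me3 peaks at WT P6, where the share of all promoters was 32.3%, and inside H2AK119ub peaks, where it was 51.9%. Promoters with 20 or more CG numbered 26 among the members, and over all genes such promoters were inside H3K27me3 peaks at WT P6 in 22.6% of cases. With 0 to 4, 5 to 9, 10 to 14 and 15 to 19 CG, the share over all genes was 31.6%, 53.2%, 41.0% and 29.5%.

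The printed promoters differed in how often they lay inside a peak. The promoters of Emx1, Six3 and Meox2 were inside peaks in all 10 H3K27me3 and all 6 H2AK119ub lists. Lhx1 missed H3K27me3 in 1 list, WT E18.5. Msx2 was inside H3K27me3 peaks in 5 of 10 lists and Isl2 in 4 of 10, while both were inside H2AK119ub peaks in all 6. Over all members, 46 of 54 promoters were inside peaks in all 16 lists, where 11.7% of all promoters were. In all 6 H2AK119ub lists 53 of 54 were, with Pdx1 at WT P7 as the exception, against 23.4% of all promoters. Six3 and Meox2 had fewer CG than Lhx1, Msx2 and Isl2, and Emx1 had more than any of them.

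Nearly all of the 57 windows carried both marks throughout. A gene counts as marked if 1 base or more of its window lies in a peak. H3K27me3 marked 56, 57, 57 and 57 members at WT E18.5, P1, P6 and P7, where 55.3%, 54.5%, 56.7% and 59.6% of all protein-coding genes were marked. It marked 57 and 56 in PRC1ctrl at P6 and P7 (55.0% and 54.0% of all genes), 57 on both days in PRC1cKO (55.1% and 54.6%), 57 in PRC2ctrl (55.2%) and 57 in PRC2cKO (48.7%). H2AK119ub marked 57 in all 6 lists, against 78.2%, 71.4%, 76.8% and 62.2% of all genes at the 4 WT stages, 71.0% in PRC2ctrl and 69.7% in PRC2cKO. Being marked in all 16 lists held for 56 of the 57 and for 6878 of the 21887. Isl2 was the exception, with no H3K27me3 peak in either of the lists named above. Each value comes from 1 list made from 2 samples, so none has a replicate error and no p-value is given.

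Coverage set these genes further from the median of all genes than the marked calls did, and other developmental homeobox genes, given at the end, were also covered widely. The covered share is the percentage of a window that lies in peaks. The members' median covered share for H3K27me3 was 100% in 8 of 10 lists, 95.6% at WT P7 and 89.5% in PRC1ctrl at P7. Over all protein-coding genes the median lay between 0% and 7.95%. For H2AK119ub the members' median was 96.1%, 93.6%, 98.5% and 81.5% at WT E18.5, P1, P6 and P7, 100% in PRC2ctrl and 88.3% in PRC2cKO, and the median over all genes lay between 5.38% and 35.7%. Whole windows were covered by H3K27me3 for 29, 37, 33 and 26 members at the 4 WT stages, where 3.47%, 4.33%, 3.79% and 5.71% of all genes were. In PRC1ctrl at P6 and P7 the counts were 39 and 19, against 5.26% and 3.42%, and in PRC1cKO 35 and 38, against 5.09% and 3.77%. PRC2ctrl had 41 (6.36% of all genes) and PRC2cKO 40 (4.35%). For H2AK119ub the WT counts were 25, 20, 28 and 2, against 10.0%, 5.81%, 10.1% and 0.402% of all genes. They were 30 in PRC2ctrl and 17 in PRC2cKO, against 5.56% and 3.24%.

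**Figure D1:**
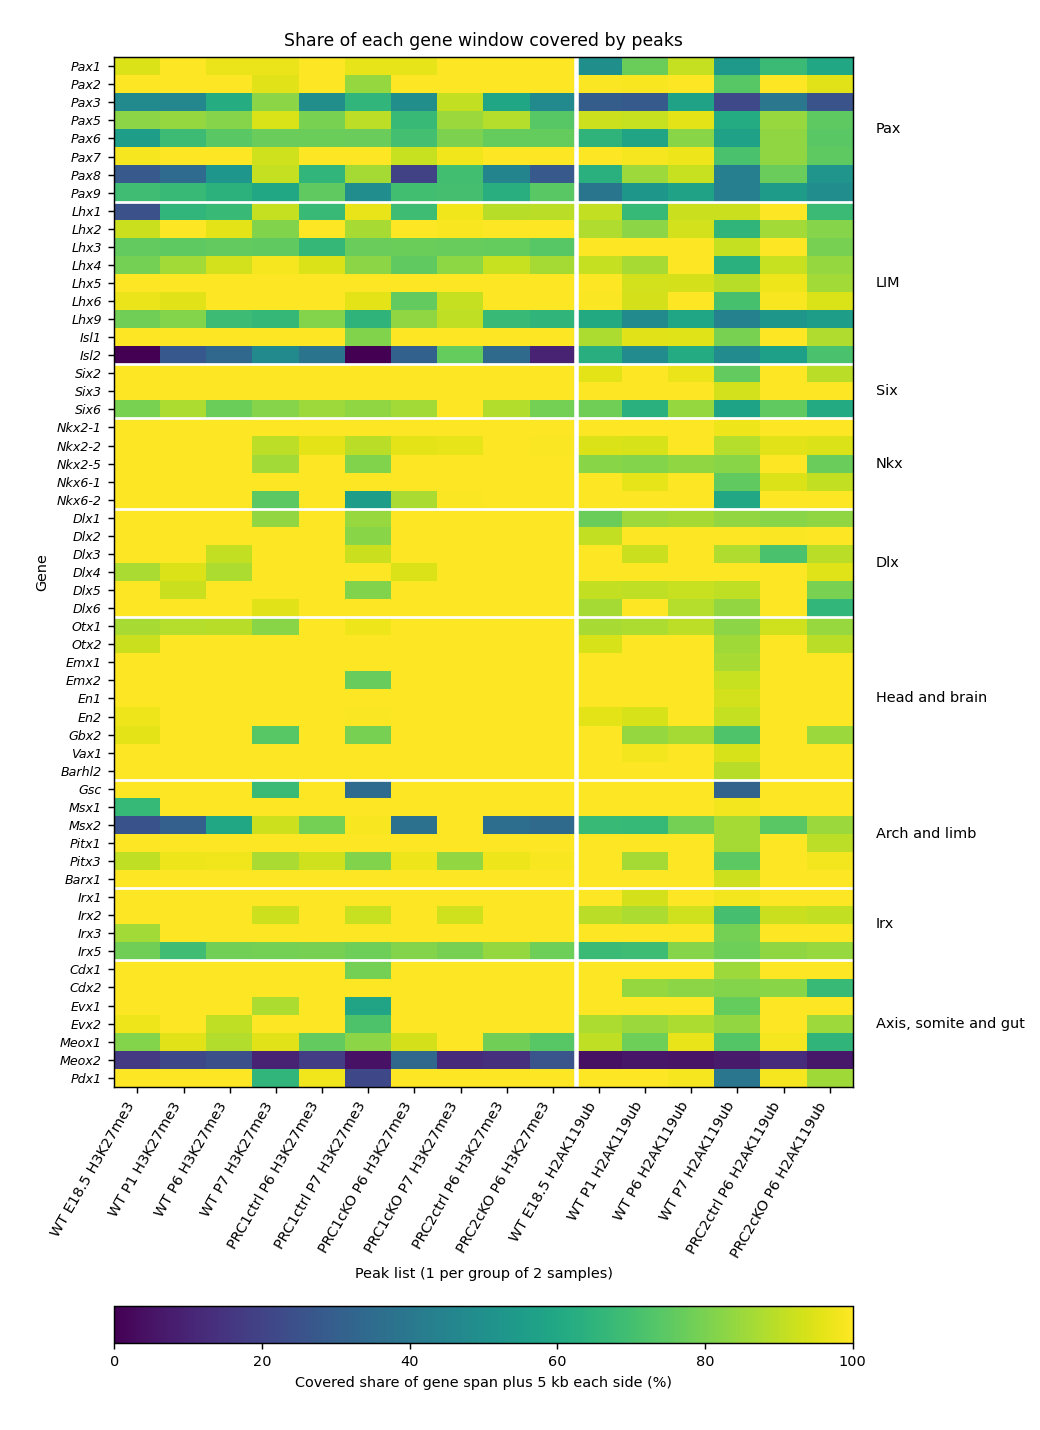
Covered share of each window (colour, 0 to 100%) for the 57 genes (rows, by group) in the 16 peak lists (columns, H3K27me3 left and H2AK119ub right of the white line). Most cells are near 100%, Meox2 reaches at most 33.73%, and the columns for PRC1ctrl P7 H3K27me3 and WT P7 H2AK119ub hold more partly covered windows than their neighbours.

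A core of 13 genes had its whole window under H3K27me3 in all 10 lists, as did 222 of all protein-coding genes. These were Nkx2-1 (lung, thyroid and ventral forebrain), Nkx6-1 (beta cells and motor neuron precursors), Six2 (nephron progenitors), Six3 (forebrain and lens), En1, Emx1, Vax1 and Barhl2 (brain and eye), Lhx5 (hippocampus and spinal interneurons), Barx1, Pitx1, Irx1 and Cdx2. Without the PRC1ctrl P7 list the count was 17. Under H2AK119ub no member was covered whole in all 6 lists (57 of all genes were), and 13 were without the WT P7 list. En1, Nkx2-1, Barx1, Six3, Barhl2 and Emx1 are in both groups of 13. The highest mean covered shares for H2AK119ub belonged to Msx1 (99.7%), Nkx2-1 (99.6%) and Dlx4 (99.2%).

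The Pax genes, which build eye, kidney, muscle, thyroid and B cells, were seldom covered whole. At most 3 of the 8 windows were whole in any list of either mark. A longer window needs more bases in peaks to be whole. Those of Pax2, Pax3, Pax5, Pax7 and Pax8 were 65.0 to 196 kb long, and those of Pax1, Pax6 and Pax9 23.1 to 39.5 kb. The part of window length in these shares was not tested. Their median H3K27me3 share was 76.0%, 76.4%, 78.0% and 92.0% at WT E18.5, P1, P6 and P7. Pax2 (kidney and optic nerve) was covered whole in 8 of 10 H3K27me3 lists. Pax8 (thyroid and kidney) had a mean of 52.1% and Pax3 (neural crest and limb muscle precursors) one of 60.1%. For H2AK119ub, Pax3 had a mean of 33.8% and Pax9 (teeth, palate and thymus) one of 49.4%, lower than all other members except Meox2. Pax5, a B cell identity gene with the longest window of the 57 (196 kb), was covered over 67.2% to 94.2% by H3K27me3 and 61.7% to 95.9% by H2AK119ub.

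LIM homeobox genes, which act in motor neurons, pituitary, forebrain and gonad, ranged from whole to nearly bare. Lhx5 was covered whole by H3K27me3 in all 10 lists, and Isl1 (motor neurons, heart precursors and islets) in 9. Lhx3 (pituitary and motor neurons) was covered over 66.7% to 77.4% by H3K27me3 and over 79.4% to 100% by H2AK119ub. Lhx9, which is needed to form the gonad, stood at 65.2% to 90.3% for H3K27me3 and 44.1% to 60.9% for H2AK119ub. Isl2, the close relative of Isl1, had a mean H3K27me3 share of 29.9% and a mean H2AK119ub share of 58.0%. The mean H3K27me3 share of Isl1 was 98.1%.

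At WT P6 the H3K27me3 median was 99.8% to 100% in the other 7 groups, 78.0% for Pax and 93.35% for LIM. This order did not hold in every list. At WT P7 the Nkx median (90.1%) was below those of Pax (92.0%) and LIM (91.2%), and in PRC1ctrl at P7 the median of the axis, somite and gut genes (72.2%) was below those of Pax (85.5%) and LIM (82.4%). The 6 Dlx genes (forebrain interneurons and craniofacial skeleton) had a lowest H3K27me3 share of 81.2% over all 10 lists, for Dlx5 in PRC1ctrl at P7. Among the 9 head and brain genes the lowest was 74.1%, for Gbx2 (anterior hindbrain) at WT P7. The 5 Nkx genes were at or above 99.9% at WT E18.5, P1 and P6, and Nkx6-2 (oligodendrocytes) had their lowest share, 56.1%, in PRC1ctrl at P7. Of the 4 Irx genes (heart, lung and neural patterning), Irx5 was never covered whole by H3K27me3 and lay between 69.3% and 84.1%. Among the arch, limb, axis and gut genes the windows of Barx1, Pitx1 and Cdx2 were whole in all 10 lists, and those of Msx2, Gsc, Pdx1 and Meox2 were under 50% in at least 1.

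Meox2 (limb muscle and somites, chromosome 12, 37108540 to 37179534) was the least covered gene for both marks. Its H3K27me3 share was 17.0%, 21.9%, 24.4% and 9.95% at WT E18.5, P1, P6 and P7, 18.1% and 4.72% in PRC1ctrl at P6 and P7, 33.7% and 12.0% in PRC1cKO, 13.4% in PRC2ctrl and 26.5% in PRC2cKO. For H2AK119ub it was 4.64%, 6.02%, 5.13% and 7.27% at the WT stages, 12.9% in PRC2ctrl and 6.58% in PRC2cKO. The peaks were narrow, with a widest H3K27me3 peak of 3.83 to 14.9 kb, and the promoter was inside one in all 16 lists. They were also high. In the 5th column of the deposited lists, which gives the highest signal within a peak in the authors' units, the highest Meox2 peak stood above 95.04% to 99.8% of the peaks of its H3K27me3 list. A low covered share at this gene thus came with high, narrow peaks in a window of 81.0 kb, and only Pax2, Pax3, Pax5 and Pax7 had longer windows.

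Peaks at these genes were wide. The widest peak touching a window had a median width over the members of 35.9, 49.5, 48.0 and 43.6 kb for H3K27me3 at the 4 WT stages, where the median over all marked genes was 8.98, 11.5, 10.8 and 15.5 kb. For H2AK119ub the medians were 27.6, 29.4, 36.1 and 13.1 kb, against 14.8, 11.6, 18.6 and 3.67 kb. The widest H3K27me3 peak spanned 287.8 kb over Pax2 at WT P1 (chromosome 19, 44580766 to 44868578). It touched no other protein-coding gene, and only 1 peak of its list was wider. The widest H2AK119ub peak, 274.6 kb at WT P6, ran over Cdx1 (posterior axis and intestine) and 7 neighbouring genes, Pdgfrb and Csf1r among them.

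**Figure D2:**
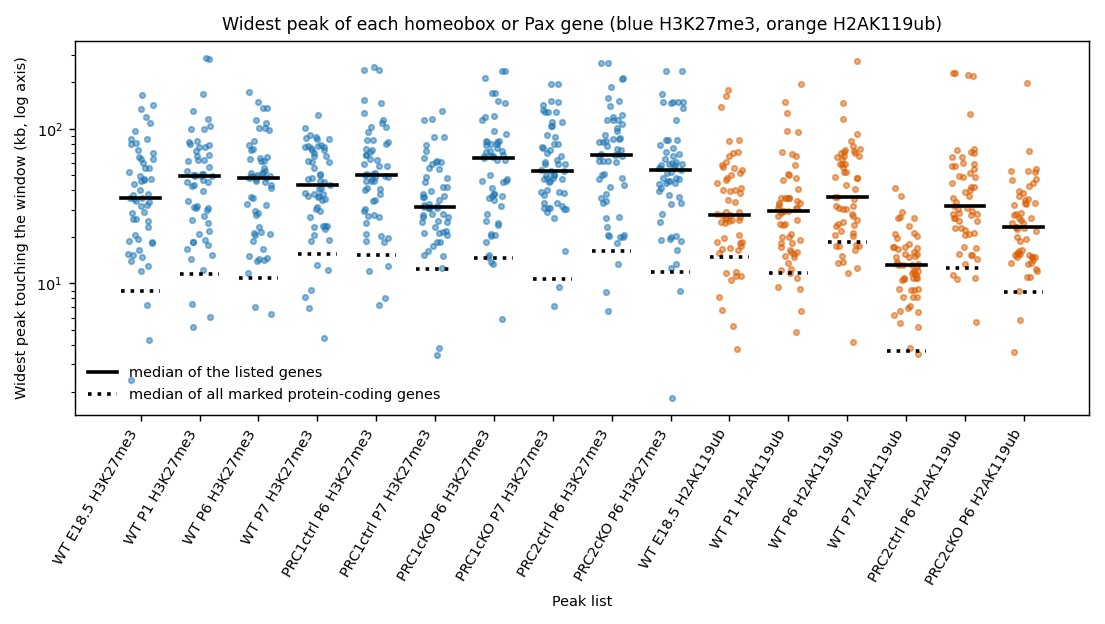
Width of the widest peak touching each window (points, 1 per gene with a peak, kb on a log axis) in the 16 lists, with the median of the 57 genes (solid bar) and of all marked protein-coding genes (dotted bar). The solid bar lies above the dotted one in every list, from 31.34 to 67.22 kb for H3K27me3 and from 13.09 to 36.12 kb for H2AK119ub. Isl2 has no point in the 2 lists where it has no H3K27me3 peak.

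Neighbouring members often lay under 1 peak, so their values are not separate measurements. Dlx1 and Dlx2 shared a peak in all 16 lists, 11.1 to 169.5 kb wide, and so did Dlx5 and Dlx6, 12.3 to 68.4 kb wide. Dlx3 and Dlx4 shared one in 5 of 10 H3K27me3 and 4 of 6 H2AK119ub lists. Six2 and Six3 shared one in 6 H3K27me3 lists and 1 H2AK119ub list, and none of these was a WT list. Its width reached 266.2 kb in PRC2ctrl (H3K27me3, chromosome 17, 85558820 to 85825006), while in WT the H3K27me3 peaks of Six3 were 62.1 to 75.9 kb wide. Pdx1 (pancreas) and Cdx2 (trophectoderm and intestine) shared a peak in 4 H3K27me3 lists, WT E18.5, PRC1cKO P6 and P7 and PRC2ctrl, of 80.1 to 85.5 kb.

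Evx1 and Evx2 (spinal interneurons) stand beside the Hoxa and Hoxd clusters and differed in how they joined them. The widest H3K27me3 peak of Evx2 also reached Hoxd13 in all 10 lists, and in PRC1ctrl at P6, PRC2ctrl and PRC2cKO it ran over 9 Hoxd genes, with widths of 153.5, 157.8 and 145.7 kb. At WT P7 it reached 4 Hoxd genes and in PRC1ctrl at P7 it reached 1. Evx1 had a peak of its own that touched no Hoxa gene in any of the 10 H3K27me3 lists, 15.1 to 31.8 kb wide. For H2AK119ub the Evx1 peak reached Hoxa13 in PRC2ctrl alone.

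By the authors' total signal, summed over a peak in the 4th column, the members held some of the strongest peaks. The strongest peak at 50 to 56 of the 57 genes was in the top 10% of its H3K27me3 list, against 20.5% to 25.6% of all genes. For H2AK119ub it was 52 to 54 genes, against 21.3% to 36.0%. In the top 1% were 13 to 41 members for H3K27me3, lowest in PRC1ctrl at P7 and highest in PRC1cKO at P7, against 4.35% to 6.27% of all genes. Total signal grows with width, so these ranks and the widths are not separate measures. Isl2 was again the low one, and its only H3K27me3 peak in PRC2cKO stood above 2.74% of the peaks of that list. Its H2AK119ub peak stood above 89.2% or more in each of the 6 lists.

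Few H3K27me3 windows of the members were called changed across the WT stages. A window was called narrowed or widened when its covered length was at least 2-fold lower or higher in the second of a pair of lists, among genes with at least 2 kb covered in either. From E18.5 to P1 no member narrowed and 2 widened, Lhx1 and Isl2, against 7.84% and 9.74% of the genes compared. From P1 to P6 none did either, against 10.0% and 15.7%. From P6 to P7 only Meox2 narrowed, from 19.7 to 8.06 kb, and none widened, against 15.2% and 26.3%. A window over 50% covered cannot reach a 2-fold gain. A share of 50% or more was held by 51, 52 and 55 members at E18.5, P1 and P6, and 23 were whole at both P6 and P7. Most members could therefore not be called widened in any of these steps, so the widened counts cannot be read against those of all genes. The same limit holds for widened windows in the other comparisons. Narrowed calls are limited too, because bases of a peak outside the window are not counted. A peak that reaches past its window can lose width while the window stays whole. Low narrowed counts of the members therefore do not show that their peaks kept their width. From P6 to P7 the covered length was greater for 14 members and smaller for 20, with the largest increases at Pax8 (25.1 kb), Pax5 (24.4 kb) and Pax3 (21.7 kb). Its median change was 0 kb for the members and 1.51 kb over all genes compared.

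H3K27me3 covered under 50% of the window of 6 members at WT E18.5. Lhx1 (head organizer and kidney, chromosome 11, 84517975 to 84525534) stood at 24.7%, 66.0%, 67.6% and 91.2% at E18.5, P1, P6 and P7. Msx2 (skull and limb, chromosome 13, 53466881 to 53472780) stood at 25.1%, 30.5%, 59.6% and 92.4%. Pax8 (chromosome 2, 24420551 to 24475599) stood at 28.0%, 35.1%, 52.6% and 91.2%. In these 3 genes the P7 share was the highest of the 4 stages. Pax3 stood at 47.9%, 46.4%, 62.0% and 82.5%. Isl2 (motor neurons and retinal ganglion cells, chromosome 9, 55538677 to 55547667) stood at 0%, 27.5%, 33.3% and 47.9%. Meox2, given above, was the only one of the 6 with a lower share at P7 than at E18.5. A covered length at least 2-fold higher at P7 than at E18.5 was found for 4 of the 6, where it was found for 51.2% of all genes that began under 50%.

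Under H2AK119ub the same genes were already well covered at E18.5, apart from Pax3 and Meox2. Lhx1 stood at 91.0%, 67.1%, 92.0% and 92.0% at E18.5, P1, P6 and P7. Msx2 stood at 67.4%, 67.2%, 79.0% and 86.6%, and Isl2 at 62.7%, 48.2%, 61.4% and 48.1%. Both lay above their H3K27me3 share at the first 3 stages. Pax8 stood at 63.4%, 85.5%, 91.7% and 43.1%, and Pax3 at 29.6%, 28.2%, 57.6% and 22.2%. At these Pax genes the P7 share was the lowest of the 4 for H2AK119ub and the highest for H3K27me3.

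**Figure D3:**
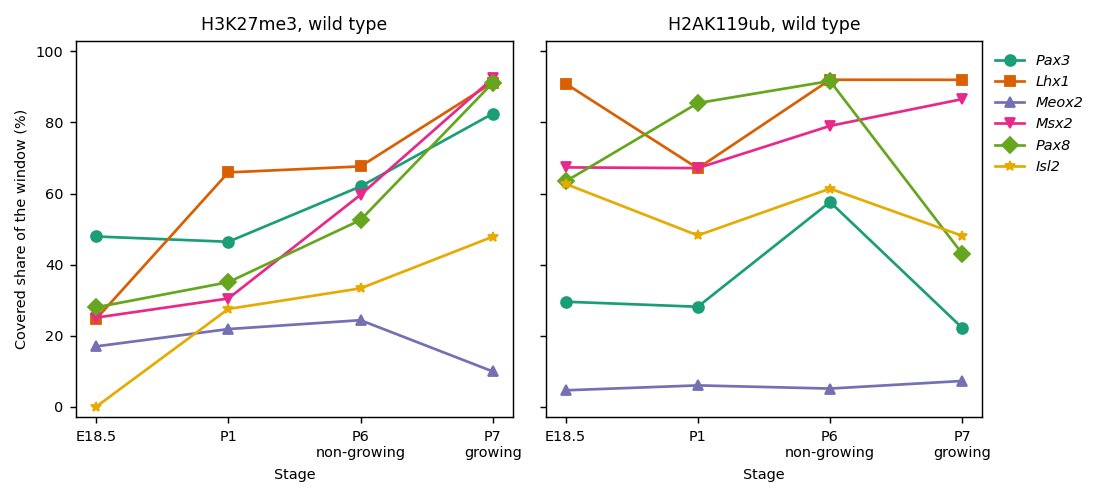
Covered share of the window (%) at the 4 WT stages for the 6 genes under 50% at E18.5 for H3K27me3, with H3K27me3 left and H2AK119ub right. For H3K27me3, Lhx1, Msx2, Pax8 and Pax3 reach 91.24%, 92.4%, 91.16% and 82.48% at P7, while for H2AK119ub Pax8 and Pax3 are at 43.08% and 22.2%.

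H2AK119ub at the members differed most between P6 and P7. Up to P6 no member narrowed and 1 widened, Pax3 from P1 to P6 (29.8 to 61.0 kb). Over all genes 24.6% narrowed and 5.34% widened from E18.5 to P1, and 6.37% and 24.0% from P1 to P6. From P6 to P7, 4 members narrowed (Pax3, Gsc, Pax8 and Pdx1) and none widened, where 67.6% of all genes compared narrowed and 1.76% widened. Among genes with at least 50% of the window covered at P6 the narrowed share was 58.4% over all genes and 4 of 56 members. The limit on narrowed calls given above applies here too. The covered length was nevertheless smaller at P7 for 53 of the 57, by a median of 2.75 kb among the members and 8.45 kb among all genes compared. Gsc (gastrula organizer) had 12.0 kb covered at P6, its whole window, and 3.83 kb at P7.

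The P7 change was larger in peak width than in covered share. The widest H2AK119ub peak was at least 2-fold narrower at P7 than at P6 for 44 of 57 members, and wider for none, against 90.4% and 1.42% of all genes. Its median ratio of P7 to P6 width was 0.379 for the members and 0.197 over all genes. Six3 fell from 48.5 to 17.2 kb and Pax2 from 147.6 to 19.7 kb, in pieces that still covered 93.3% and 74.1% of their windows. Peaks touching the 57 windows numbered 80 at P6 and 202 at P7, so the same windows lay under more and shorter peaks. The P7 list as a whole covered 244.2 Mb, the least of the 16, with 80950 peaks, and the P6 list 728.3 Mb with 61419. The part of these list-wide differences in the members' values cannot be told apart from that of the stage.

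With the pair trimmed by total signal to the same covered length, the P6 to P7 step had 1 narrowed member and 9 widened, in place of 4 and none. The covered length was then smaller at P7 for 40 members, greater for 15 and equal for 2, in place of 53 smaller, and 8 members had no peak left at P6. The balance of the 2-fold calls thus turned with this trimming, while the count of members with a smaller length kept its direction. The widest peak was still narrower at 38 members under that trimming, and wider at 8. With peaks under 3 kb apart joined, it was narrower at 29 and wider at none.

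With nearly whole windows under each mark, a large part under both follows from the coverage, and the values here describe its extent only. A base under both marks was found in 56 members at WT E18.5 and in 57 at P1, P6 and P7, against 46.0%, 45.3%, 49.3% and 46.6% of all genes. Pooled over the members, bases under both marks made up 84.5%, 86.3%, 88.5% and 73.2% of the bases under either at the 4 stages. Over all genes these shares were 32.3%, 37.1%, 40.5% and 37.2%. At P7 the members held 381.6 kb under H3K27me3 alone and 22.5 kb under H2AK119ub alone. At E18.5 the lengths were 103.9 and 128.5 kb. Windows wholly under both marks numbered 19, 18, 22 and 2 at the 4 stages, against 2.02%, 1.83%, 2.58% and 0.379% of all genes.

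Around the start sites of the 44 genes with a promoter, coverage was high at the start and, 10 kb away, higher after it than before. At WT P6 the mean covered share at 10 kb before and 10 kb after was 73.1% and 90.2% for H3K27me3. For H2AK119ub it was 72.2% and 83.0%. In the 1 kb bin that begins at the start, the mean covered share was 100% for both marks at WT P6, against 32.6% (H3K27me3) and 50.5% (H2AK119ub) over all genes. At 20 kb before and 20 kb after, it was 63.5% and 72.5% for H3K27me3 and 66.9% and 68.4% for H2AK119ub. At WT P7 the H3K27me3 shares at these distances were 72.7% and 76.7%, and the H2AK119ub shares 25.7% and 32.5%, with 95.5% at the start. H2AK119ub at P7 was thus retained at the starts and low in the flanks, and the shares over all genes at 20 kb, 15.1% and 14.8%, were lower still.

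**Figure D4:**
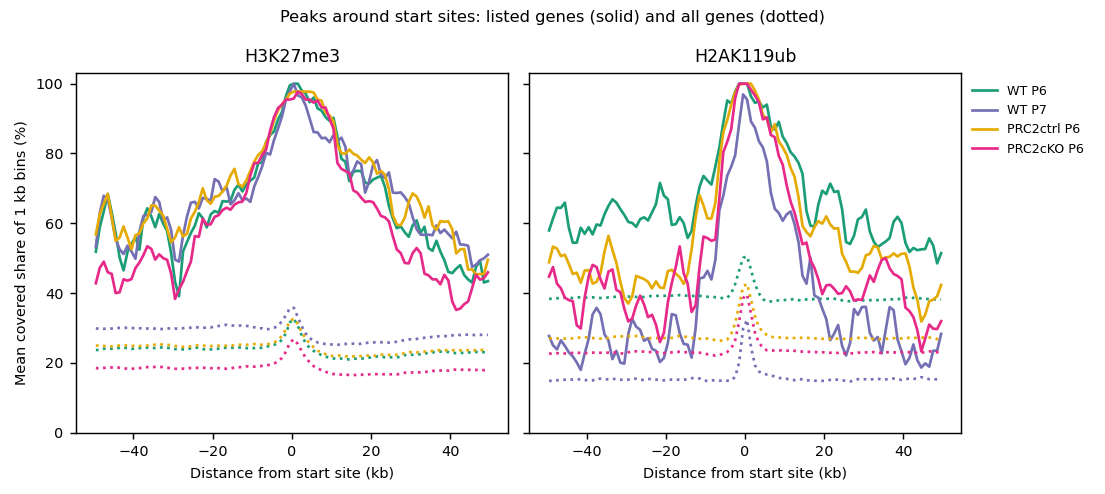
Mean covered share of 1 kb bins (%) by distance from the start site (kb, up to 50 kb each way) over the 44 member genes with a promoter (solid) and over all genes (dotted), for H3K27me3 and H2AK119ub in 4 groups. The solid lines reach 95.45% to 100% at the start in these groups, and the WT P7 H2AK119ub line falls to 25.66% at 20 kb before it.

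H3K27me3 in PRC1ctrl and PRC1cKO was compared at P6 and P7. At P6, 34 of 57 windows were whole in both groups. In PRC1cKO 2 members were narrowed, Msx2 and Pax8, and none widened, against 13.5% and 11.0% of all genes. Msx2 had a share of 79.2% in PRC1ctrl and 37.2% in PRC1cKO, and the other controls of that day stood at 59.6% (WT) and 36.2% (PRC2ctrl). Pax8 had 65.8% and 19.2%, with 52.6% in WT and 45.3% in PRC2ctrl. For Msx2 the PRC1cKO share was thus within the range of the 3 controls, and for Pax8 it was below all 3. The widest peak was at least 2-fold narrower at 2 members and wider at 2, against 16.6% and 15.4%.

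At P7 the windows were fuller in PRC1cKO than in PRC1ctrl. The covered length was greater in PRC1cKO for 34 members and smaller for 5. Its median change was 0.364 kb for the members and -0.384 kb over all genes compared. The calls were 4 members widened (Meox2, Gsc, Pdx1 and Isl2) and none narrowed. Of the 12222 genes compared, 2256 were widened and 2949 (24.1%) narrowed, 42.6% in either direction. Gsc (chromosome 12, 104471209 to 104473236) was covered over 34.9% in PRC1ctrl and 100% in PRC1cKO, and over 68.1% in WT. Pdx1 (chromosome 5, 147270097 to 147275848) was covered over 21.8%, 100% and 65.9% in the same order. Isl2 was covered over 0%, 76.6% and 47.9%. WT lay between PRC1ctrl and PRC1cKO at each of these 3 genes. The widest peak was at least 2-fold wider in PRC1cKO for 20 members and narrower for 1, Lhx1, against 24.2% and 28.0% of all genes.

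The PRC1ctrl P7 list stood apart from the other H3K27me3 lists at these genes. It had the fewest whole windows (19, against 26 to 41 elsewhere) and the lowest median widest peak (31.3 kb, against 43.6 kb in WT and 53.2 kb in PRC1cKO at P7). Compared with WT at P7, its windows were narrowed at 3 members, Meox2, Pdx1 and Isl2, and widened at none, against 22.4% and 3.52% of all genes. The promoters of Gsc, Emx2, Pdx1, Evx1 and Isl2 lay outside its peaks and that of Dlx2 had 80 of 300 bases in one. Those of all but Isl2 were inside H3K27me3 peaks in the other 9 lists. It covered 491.6 Mb with 61336 peaks, where WT P7 covered 618.8 Mb with 61088 and PRC1cKO P7 463.3 Mb with 67213. The part of this 1 list in the P7 comparison was not tested, since WT and PRC1ctrl also differ in genotype.

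From P6 to P7 the widest H3K27me3 peaks of the members moved differently in the 3 genotypes. In WT, 9 members had a peak at least 2-fold narrower at P7 and 9 a wider one, against 15.9% and 36.5% of all genes. In PRC1ctrl there were 17 and 3, against 33.6% and 21.8%. In PRC1cKO there were 2 and 5, against 32.7% and 14.6%. With peaks under 3 kb apart joined, the counts were 7 and 6 in WT, 14 and 3 in PRC1ctrl and 1 and 10 in PRC1cKO. Gsc, Otx2, Pax2, Dlx1, Dlx2 and Pdx1 were narrower in both WT and PRC1ctrl, which is 66.7% of the WT genes and 35.3% of the PRC1ctrl genes. In PRC1cKO only Gsc of these 6 was. Dlx1 and Dlx2 lie under 1 shared peak. The overlap over all genes was not counted, so these shares stand without a background and are not read as a trait of the members. With 1 list per group the difference between genotypes could not be tested.

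Individual genes show the size of this step. Otx2 (anterior neural tissue and retina, chromosome 14, 48656781 to 48667644) had a widest peak of 109.8 kb at P6 and 41.6 kb at P7 in WT, 108.4 and 30.6 kb in PRC1ctrl, and 113.1 and 110.9 kb in PRC1cKO. Pdx1 had 27.8 and 6.92 kb in WT, 27.9 and 3.43 kb in PRC1ctrl, and 82.4 and 80.1 kb in PRC1cKO. In PRC1cKO, but not in WT or PRC1ctrl on these days, this was the peak shared with Cdx2. At Otx2 and Pdx1 the width in PRC1cKO was nearly equal on both days. Pax2 had 149.8 and 67.1 kb in WT, 146.9 and 59.4 kb in PRC1ctrl, and 211.3 and 148.2 kb in PRC1cKO. Gsc had 72.5 and 8.19 kb in WT, 84.7 and 15.2 kb in PRC1ctrl, and 119.8 and 33.1 kb in PRC1cKO, so its peak was narrower at P7 in all 3. Lhx1 went the other way, with 13.9 and 38.7 kb in WT, 12.9 and 78.9 kb in PRC1ctrl, and 13.5 and 29.2 kb in PRC1cKO.

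**Figure D5:**
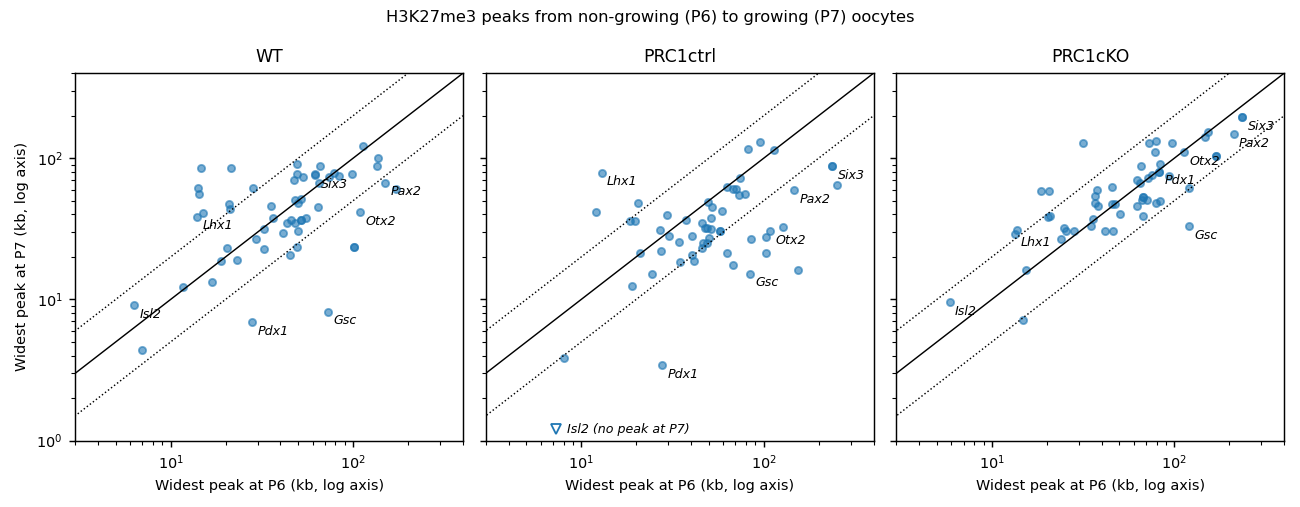
Widest H3K27me3 peak of each of the 57 genes at P6 (x axis) and P7 (y axis), both in kb on log axes, in WT, PRC1ctrl and PRC1cKO, with equality (solid line) and 2-fold changes (dotted lines). Below the lower dotted line are 9 genes in WT, 17 in PRC1ctrl (counting Isl2, drawn as an open triangle because it has no peak at P7) and 2 in PRC1cKO.

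PRC2cKO oocytes at P6 kept H3K27me3 peaks at all 57 genes. Their windows were whole for 40 members, against 41 in PRC2ctrl, and the same 40 were whole in both. Over all genes 48.7% were marked in PRC2cKO and 55.2% in PRC2ctrl, and the whole lists covered 428.6 and 558.4 Mb. Only Isl2 was narrowed, from 6.59 to 1.83 kb, and none widened, against 28.8% and 4.23% of all genes compared. Among genes at least 50% covered in PRC2ctrl, 14.8% narrowed over all genes and none of the 53 members did. The median widest peak of the members was 67.2 kb in PRC2ctrl. A peak that reaches past its window can narrow without a call, so this difference is not read as a trait of the members. Of the 17 members that were not whole in both lists, 12 had a smaller covered length in PRC2cKO and 5 a greater one. The median change was 0 kb over all 57 members and -2.66 kb over all genes compared. Pax5 had the largest decrease, 29.0 kb, and Meox2 the largest increase, 10.6 kb.

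Peak widths in PRC2cKO differed a little more than covered shares. The widest H3K27me3 peak was at least 2-fold narrower at 6 members, Nkx2-5, Lhx3, Pdx1, Cdx2, Nkx6-2 and Isl2, and wider at 1, Dlx3, against 36.7% and 5.66% of all genes. The median ratio of PRC2cKO to PRC2ctrl width was 0.909 for the members and 0.773 over all genes. Nkx2-5, the heart gene, had a widest peak of 108.1 kb in PRC2ctrl, 41.4 kb in PRC2cKO and 45.2 kb in WT at P6. Its PRC2cKO width was therefore close to that of WT. Within the PRC2cKO list the strongest peak of 38 members was in the top 1% by total signal, against 4.49% of all genes, and in PRC2ctrl that of 35, against 5.25%. How the authors scaled the signals is not stated, so their size was not compared between the lists.

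H2AK119ub in PRC2cKO was lower at most members by a small length. The whole list covered 398.2 Mb in PRC2cKO and 498.4 Mb in PRC2ctrl. The part of this list-wide difference in the members' values was not tested. No member narrowed or widened, against 16.7% and 7.67% of all genes. The covered length was smaller in PRC2cKO than in PRC2ctrl for 34 members, greater for 7 and equal for 16, by a median of 1.39 kb less, where the median over all genes was 1.63 kb less. The largest decreases were at Pax5 (18.0 kb), Pax8 (16.1 kb) and Pax3 (15.2 kb), and the largest increase was at Isl2 (2.83 kb). Isl2 thus had more H2AK119ub and less H3K27me3 in PRC2cKO, with shares of 71.2% and 9.62%, against 56.3% and 34.7% in PRC2ctrl. The widest H2AK119ub peak was at least 2-fold narrower at 14 members and wider at none, against 29.2% and 8.44% of all genes. Both marks overlapped at all 57 genes in PRC2ctrl and in PRC2cKO, against 46.1% and 38.4%, and bases under both made up 86.0% and 81.0% of those under either.

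Lists of the controls also differed among themselves. At P6, no member narrowed or widened in H3K27me3 between WT and PRC1ctrl, where 11.6% and 9.3% of all genes did, or between WT and PRC2ctrl, where 8.2% and 6.73% did. In H2AK119ub only Meox2 widened from WT to PRC2ctrl, and none narrowed, against 3.79% and 28.5% of all genes. In peak width they differed more. The widest H3K27me3 peak at P6 was at least 2-fold narrower in PRC1ctrl than in WT at 1 member and wider at 8, against 11.6% and 23.0% of all genes. In PRC2ctrl it was narrower than in WT at none and wider at 10, against 8.53% and 24.1%, and for H2AK119ub the counts were 6 and 7, against 37.1% and 5.8%. At P7 the H3K27me3 peak was narrower in PRC1ctrl than in WT at 11 members and wider at 1, against 31.1% and 5.86%. The P6 H3K27me3 counts are as large as the 6 narrower and 1 wider between PRC2ctrl and PRC2cKO, though most were wider. For H2AK119ub, 14 were narrower and none wider in PRC2cKO than in PRC2ctrl. Between PRC1ctrl and PRC1cKO, H3K27me3 had 2 narrower and 2 wider at P6, and 1 and 20 at P7. The counts between controls include the difference of genotype and are no replicate error.

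High coverage was not particular to the 57 genes. Of 74 further developmental homeobox and Pax genes, 70 to 72 were marked by H3K27me3 and 71 to 74 by H2AK119ub. Their median H3K27me3 share was 91.6%, 96.1%, 99.3% and 91.5% at WT E18.5, P1, P6 and P7, 81.8% in PRC1ctrl at P7 and 100% in the other 5 lists. Their median H2AK119ub share lay between 62.6% and 90.9%. Hmx1, Hlx, Lbx1 and Pou3f1 among them were whole under H3K27me3 in all 10 lists, while Six5 had no H3K27me3 peak in any list and a mean H2AK119ub share of 78.0%. Of 32 homeobox genes expressed in many tissues, 20 to 24 were marked by H3K27me3, and their median covered share lay between 3.30% and 7.79%. Adnp, Homez and Cers2 were among those with no H3K27me3 peak in any list. Zhx2 and Meis3 were marked in all 10, with mean H3K27me3 shares of 88.6% and 82.5%. H2AK119ub marked 26 to 32 of these 32 genes. Of 16 homeobox genes of oocytes and the germ line, 6 to 10 were marked by H3K27me3 and 9 to 12 by H2AK119ub. Rhox6 and Obox6 were marked by H3K27me3 in 9 and 10 lists, with mean shares of 81.7% and 68.5%, and Obox1 in none. Nobox, an oocyte transcription factor, was marked in 1 of 10 H3K27me3 lists and Lhx8, a LIM relative of the members that oocytes express, in 10, with a mean share of 28.8%.

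Marker genes of the cells in the ovary were read in the same way. H3K27me3 marked 4 to 14 of 18 oocyte markers, and Dazl, Kit and Sycp3 were among those with no H3K27me3 peak in any list. Ddx4, Lhx8 and Mael were marked in all 10, with mean shares of 7.08%, 28.8% and 4.93%. Zar1 was marked in 8, with a mean share of 75.8%. H3K27me3 marked 16 or 17 of 18 granulosa and stroma markers, whose median share lay between 70.4% and 86.7%. Foxl2 and Tcf21 were whole in all 10 lists, Fshr had a mean share of 32.5%, and Star had no H3K27me3 peak in any list. Of 14 blood and endothelial markers H3K27me3 marked 10 to 13. Of 18 housekeeping genes it marked 2 to 6. Gapdh and Eef2 had no H3K27me3 peak in any list, while H2AK119ub marked Gapdh in all 6 lists and Eef2 in 3. Gusb and Actb were marked by H3K27me3 in 10 and 9 lists, with mean shares of 28.6% and 23.5%. The part of other cells in the samples was not tested.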

How the data were processed

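CUT&Tag for H3K27me3 (10 groups) and H2AK119ub (6 groups) was done on mouse oocytes, 2 samples per group, with Drosophila S2 cells added to each reaction (such as 2000 of them with 1000 oocytes) and reads of 150 bp, per the labels' protocols. The submitters' processing notes name Bowtie2, SAMtools, deepTools, Picard (3.0.0) and Trim Galore (0.6.10), with the builds mm10, GRCm38 and dm6. Not given in the sources used here are the peak caller, its threshold, how the S2 reads were used and how both samples of a group were joined. For each group the authors deposited 1 peak list without a header. Judged from the values, its 4th column holds the signal summed over a peak and its 5th the highest signal, both in the authors' units, and they served only to rank peaks within a list. Read depth is unknown from these files. The lists held 49615 to 83994 peaks and covered 244.2 to 728.3 Mb.

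Windows were RefSeq GRCm38.p6 gene spans plus 5 kb on each side. Covered length, covered share and the widest touching peak were computed for 21887 protein-coding genes with Python 3.11.15, numpy 2.4.6 and pandas 2.3.3, and the interval code was tested on simulated data. A call needed a 2-fold change and at least 2 kb covered in either list. With 1 list per group there is no replicate check, no test and no p-value, so the calls are descriptions set beside the share of all genes. Nothing in the labels states whether the samples of a group came from separate animals.

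The members and gene lists were chosen with earlier results of these data known. Named were members unmarked in a list, the 3 with the highest and lowest mean share, the 3 largest changes in each direction of a comparison, the widest peaks and genes that share peaks. Genes that a call or another count picked out were named after their values were seen. Alternatives changed the peak cut, the window, the fold, the joining of peaks and the counting of neighbours. Of the 57 genes, 13 had no entry in the promoter table.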

Additional observations from a re-analysis of the deposited data

Results flagged for a closer look

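The covered length of Isl2 under H3K27me3 went in opposite directions from P6 to P7 in PRC1ctrl and PRC1cKO. It was 7.296 kb at P6 and 0 kb at P7 in PRC1ctrl, a change of -7.296 kb. In PRC1cKO it was 5.864 kb at P6 and 14.539 kb at P7, a change of 8.675 kb. In WT it was 6.327 and 9.087 kb. This gene drew attention because the groups moved apart, and the difference was not tested, since each value comes from 1 list. The Isl2 peak at P6 in PRC1ctrl stood above 58.8% of the peaks of its list by total signal.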

How the results depend on the processing

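Of 328 recomputed values for 64 results, 289 stayed within 1.5 times the main count and 39 moved. The number of marked members lay between 49 and 57 under the peak cuts, the other windows and the counting of 1 member per locus, and between 39 and 44 of 44 by promoter. With windows without flanks, 1 member widened in H3K27me3 from WT E18.5 to P1, from WT P1 to P6, in PRC1cKO at P6 and in PRC2cKO, and 1 in H2AK119ub from WT E18.5 to P1 and from WT P6 to P7, while 1 narrowed in H2AK119ub from WT P1 to P6 and in PRC2cKO. At 1.5-fold, 1 widened in H3K27me3 from WT P1 to P6, in PRC1cKO at P6 and in PRC2cKO, and 1 in H2AK119ub from WT E18.5 to P1. At that fold, WT H3K27me3 from P6 to P7 had 2 narrowed and 2 widened, PRC2cKO had 2 narrowed in H3K27me3 and 4 in H2AK119ub, and WT H2AK119ub from P6 to P7 had 8 narrowed. With the peaks above the median total signal alone, WT H3K27me3 from P6 to P7 had 3 narrowed and 2 widened. Trimmed to equal covered length, it had 2 narrowed, WT H2AK119ub from P1 to P6 had 0 widened and from P6 to P7 had 1 narrowed and 9 widened in place of 4 and 0, which turns the balance of these calls, and PRC2cKO H3K27me3 had 1 widened. Trimmed to an equal number of peaks, WT H3K27me3 from P6 to P7 had 1 widened. With peaks under 3 kb apart joined, PRC2cKO H3K27me3 had 1 widened.

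For the widest peak, joining gave 5 wider in WT H3K27me3 from E18.5 to P1, 11 narrower and 2 wider in WT H2AK119ub from E18.5 to P1, 29 narrower in WT H2AK119ub from P6 to P7, 0 narrower in PRC1cKO at P7, 1 wider in PRC2cKO H2AK119ub, and 1 narrower and 10 wider in PRC1cKO from P6 to P7. Trimming to equal covered length gave 8 wider in WT H2AK119ub from P6 to P7. With 1 member per locus, 1 was narrower in WT H3K27me3 from E18.5 to P1, 3 in WT H2AK119ub from P1 to P6, and 1 was wider in PRC1cKO at P6. Without the WT P7 list, 13 members were whole under H2AK119ub in every list, in place of 0. Apart from the settings that test fewer bases, peaks or members by construction, the cause was not tested. No paired analysis was possible because each group has 1 list. Most calls rest on fewer than 5 members, so a change by 1 can move a count. Read depth is unknown, so a missing peak was not detectable in that list and is not shown to be absent from the cells.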
